A study of Rattus norvegicus with 24 samples.

Results

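The probes R630, R689, R306, R469, RG376, R345, R261 and RG303 of a rat heart expression array are described here across 2 operations and 2 times. They are 8 of the 1185 probes in the deposited table, of which 923 had a value on at least 1 array. They were chosen by the difference of their intensity between day 7 and day 1 after myocardial infarction (MI) and after a sham operation, so their differences between days are given as descriptions, with standard errors (SE) and no p-value. Per the labels, the arrays carried total RNA of rat left ventricle from 4 groups of 6 arrays each: MI at 1 day, MI at 7 days, sham at 1 day and sham at 7 days after the operation. MI samples were left ventricle and septum without the infarct zone, and sham samples were left ventricle and septum. The tissue sampled therefore differed between the operations, while within each operation the labels name the same tissue on both days. The description field of the day 1 sham samples names 7 days, whereas the keywords and the titles give 1 day; groups follow the titles. Strain, sex, age and the way the infarction was made could not be learned from the labels, and none of them says outright that each array came from a different rat, so the spread between arrays may in part be technical.

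No source used here pairs a probe ID with a gene, and 0 of the IDs matched the gene table at hand. The probes are therefore given by ID, with no gene role and no sequence, and the ventricular origin could not be checked with marker genes. As background, loss of blood flow kills heart muscle, inflammatory cells enter the damaged wall in the first days, and scar-forming fibroblasts and remodelling of the surviving muscle follow. A sham operation is the usual control for this model because anaesthesia, opening of the chest and wound healing reach both groups of animals. In whole tissue, fewer cells of a type and less RNA per cell cannot be told apart.

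The 6 arrays titled A507 to A512, 3 of each operation and all from day 1, stood apart before any comparison. They listed 141 to 296 probes each, against 404 to 684 on the other 18 arrays, and probes left blank were treated as missing. R630, R689 and R261 were listed on all 24 arrays. The other probes were listed on all 12 day 7 arrays and were blank on some day 1 arrays, so that R345 had a value on 21 arrays, R469 and RG303 on 20, and R306 and RG376 on 19. Of the 6 arrays A507 to A512, R306 was listed on 1, R469 on 2, and RG376, R345 and RG303 on 3 each. Of the other 6 day 1 arrays, R306, R469 and R345 were listed on 6, RG303 on 5 and RG376 on 4. Why cells were left blank is not given, so a blank was not read as a low level. Intensities were used as deposited and, as a second scale called complete-probe scaling, after each array was shifted to the same mean log2 intensity over the 94 probes listed on every array (a probe fixed at 100 on every array was left out). Before this shift, the log2 mean of these 94 probes on A507, A508 and A509 (sham) lay at -1.10, -0.59 and -0.67 relative to the mean of all arrays. On A510, A511 and A512 (MI) it lay at -0.07, -0.60 and -0.15. On the other 6 day 1 arrays it lay at 0.20 to 0.37, and on the 12 day 7 arrays at -0.08 to 0.25. Results are given with arrays A507 to A512 unless their absence is stated, and the main comparisons also without them.

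**Figure D1:**
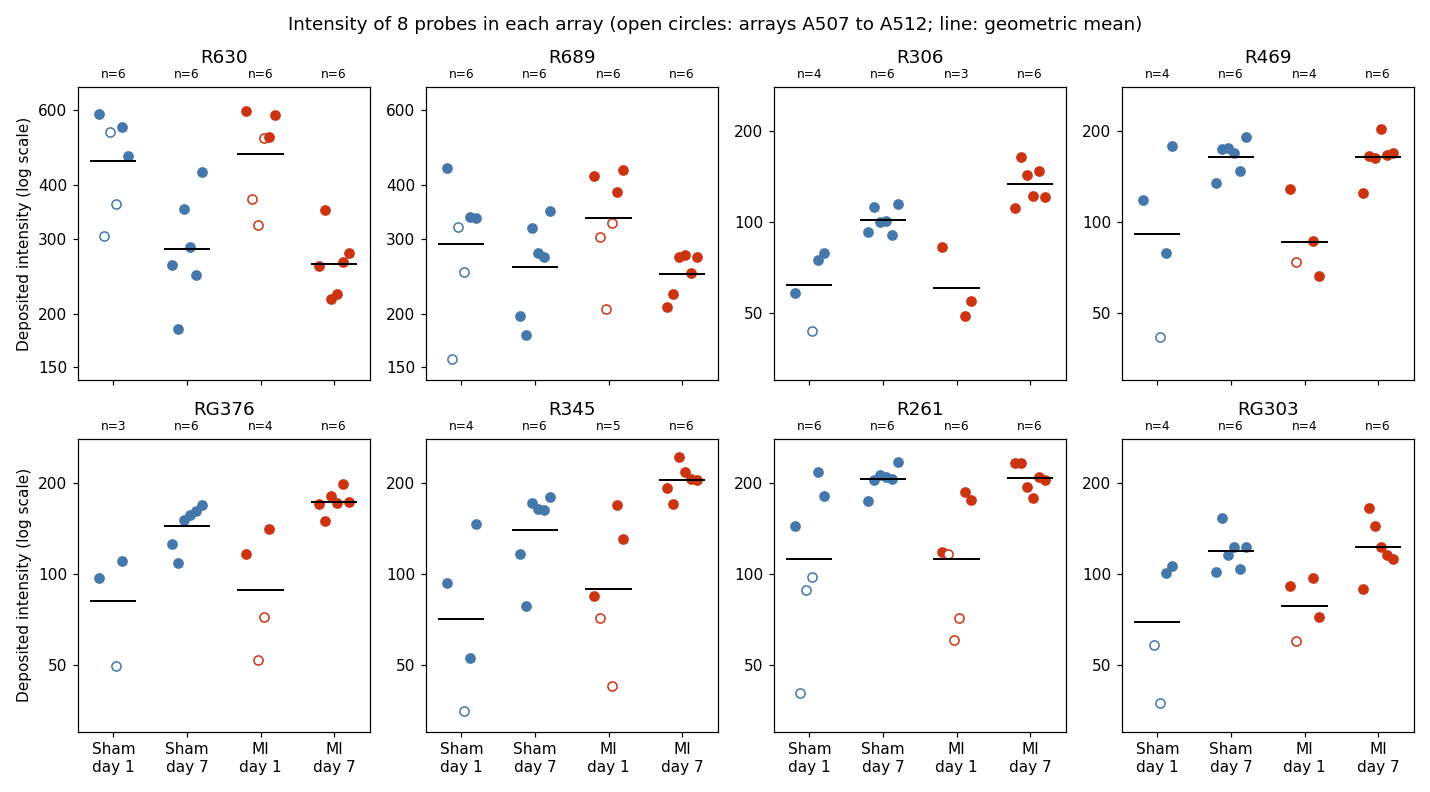
Deposited intensity (log scale) of each probe in every array that listed it, by operation and day, with n the number of arrays listing it, a line at the geometric mean and open circles for arrays A507 to A512. R630 and R689 have lower means at day 7 than at day 1, the other 6 probes have higher ones, and the open circles include the lowest day 1 sham value of all 8 probes.

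R630 and R689 were the probes with lower intensity at day 7. R630 was also the brightest of the 8, with a mean log2 intensity above that of 97.5% of the 922 probes compared. In sham hearts its lowest, median and highest intensities were 304, 500.8 and 590 at day 1 and 184, 274 and 429 at day 7. In MI hearts they were 323, 517.9 and 599 at day 1 and 216, 260.96 and 351 at day 7. The ranges of the days overlapped in both operations, through arrays of the A507 to A512 set. The means were 468 ± 113 and 293 ± 86.2 in sham and 486 ± 113 and 265 ± 48.5 in MI (SD, n = 6 each). On the log2 scale the day 7 mean was 0.69 lower in sham (difference -0.69, SE 0.22) and 0.86 lower in MI (difference -0.86, SE 0.22), or 1.61-fold and 1.81-fold lower.

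R689, above 95.1% of probes in mean level, had a smaller difference. Its lowest, median and highest intensities in sham hearts were 156, 327 and 440 at day 1 and 179, 274 and 348 at day 7. In MI hearts they were 206, 356 and 434 at day 1 and 208, 260 and 275 at day 7. The lowest value of each day 1 group came from an array of the A507 to A512 set and lay below the whole day 7 range of its operation. On the log2 scale the difference was -0.44 (SE 0.23) in MI and -0.18 (SE 0.23) in sham, the latter smaller than its SE. The sham value was -0.36 without sham day 1 replicate 2, -0.06 without sham day 1 replicate 1, and -0.10 and -0.08 without sham day 7 replicates 1 and 2.

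Among the 6 probes with higher intensity at day 7, R306 was the dimmest (above 68.9% of probes in mean level) and the only one of the 8 whose days were apart in both operations as deposited. The 4 sham arrays listing it at day 1 gave 43.5, 58.0, 74.6 and 78.7, and the 6 at day 7 had a lowest, median and highest intensity of 90.5, 101 and 114. The 3 MI arrays listing it at day 1 gave 48.6, 54.7 and 82.7, and the 6 at day 7 ran from 111 through a median of 132 to 164. No day 7 value was as low as any day 1 value in either operation. R306 was at 63.7 ± 16.2 (SD, n = 4) and 102 ± 9.8 (SD, n = 6) in sham, and at 62.0 ± 18.2 (SD, n = 3) and 135 ± 20.1 (SD, n = 6) in MI. The log2 difference was 1.14 (SE 0.23) in MI and 0.71 (SE 0.22) in sham, or 2.21-fold and 1.63-fold. One day 7 sham value of R306 was exactly 100, a value that 53 cells of the table hold besides the fixed probe.

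R345 had the largest difference between days of the 8 in both operations on the deposited scale. Its day 1 values were 35.2, 52.7, 93.4 and 147 in the 4 sham arrays and 42.4, 71.5, 84.2, 130 and 169 in the 5 MI arrays that listed it. At day 7 the lowest, median and highest were 78.1, 163 and 180 in sham and 170, 206 and 243 in MI. In MI the highest day 1 array, A537, stopped just short of the lowest day 7 array, and in sham the ranges overlapped. Day 7 minus day 1 was 1.20 (SE 0.33) in MI and 0.98 (SE 0.35) in sham on the log2 scale, or 2.29-fold and 1.97-fold, and 0.64 in sham without sham day 1 replicate 4.

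RG376 showed the same kind of pattern with fewer listed arrays. Day 1 gave 49.7, 97.1 and 111 in the 3 sham arrays and 52.0, 71.9, 116 and 141 in the 4 MI arrays, and day 7 gave a lowest, median and highest of 108, 154 and 170 in sham and 149, 172 and 199 in MI. The days were apart in MI and overlapped in sham, with a log2 difference of 0.97 (SE 0.26) in MI and of 0.83 (SE 0.29) in sham.

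R469 varied widely at day 1 and little at day 7 in sham. Its 4 sham values were 41.4, 78.9, 118 and 178, and its 4 MI values 66.1, 73.8, 86.4 and 128. At day 7 the lowest, median and highest were 135, 172 and 191 in sham and 125, 166 and 203 in MI. In each operation 1 day 1 array, A536 in sham and A506 in MI, lay within the day 7 range. Its log2 difference was 0.93 (SE 0.28) in MI and 0.85 (SE 0.28) in sham. The sham value was 0.47 without sham day 1 replicate 4, which is array A509.

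R261, listed on every array, owed its lowest values to arrays A507 to A512. Its lowest, median and highest intensities at day 1 were 40.2, 121 and 218 in sham and 60.5, 117 and 187 in MI. At day 7 they were 174, 207 and 235 in sham and 179, 207 and 234 in MI. The 6 arrays A507 to A512 ran from 40.2 to 116, below every other value of the probe, and the ranges of the days overlapped in both operations. The log2 difference was 0.90 (SE 0.30) in MI and 0.88 (SE 0.30) in sham, where it was 0.58 without sham day 1 replicate 2.

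RG303 had the smallest difference of the 6 in MI. Day 1 values were 37.4, 57.9, 101 and 106 in the 4 sham arrays and 59.7, 71.8, 91.0 and 97.0 in the 4 MI arrays. At day 7 the lowest, median and highest were 102, 119 and 154 in sham and 89.0, 119 and 165 in MI, so the days overlapped in both operations. For RG303 the log2 difference was 0.64 (SE 0.26) in MI and 0.78 (SE 0.26) in sham, where it was 0.48 without sham day 1 replicate 4.

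On the deposited scale a limma model with 1 mean per group called 4 of the 8 probes in MI at a Benjamini-Hochberg adjusted p under 0.05, R306, RG376 and R345 higher and R630 lower, where 2.82% of all 354 probes tested were called. In sham it called 0 of the 8, where 0.311% of 322 probes (1 probe) were called and 69 had an unadjusted p under 0.05. Ranges of the days did not overlap for 3 of the 8 in MI (R306, RG376, R345) against 5.08% of all probes tested, and for 1 of the 8 in sham (R306) against 2.8%. No probe of the 275 tested in both operations was called in both (0%). These counts come from the contrasts that chose the probes and are listed only to place them. They also depended on single arrays: 13 of the 24 fits that left out 1 array called 0 to 2 of the probes in MI. The share over all probes is given for only 1 of these fits, so a loss particular to the 8 cannot be read from that count. In that fit, without MI day 1 replicate 6, 0 of the 7 tested were called. Of all 268 probes tested there, 0.746% were called and 57 had an unadjusted p under 0.05. In sham 7 of 8 were called without sham day 1 replicate 6, 5 of 7 without replicate 1 and 3 of 7 without replicate 5, and the shares over all probes rose as well, to 23.2%, 20.8% and 9.52% of the 189 to 194 probes tested. Day 7 values were higher in general on this scale: the median difference over all probes tested was 0.22 in MI and 0.29 in sham, and of the 275 probes tested in both operations 183 were higher at day 7 in both and 19 lower in both. With complete-probe scaling these counts were 168 and 56, and the median differences 0.22 and 0.22. R630 and R689 belong to the smaller set on both scales.

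With complete-probe scaling the differences of R630 and R689 became larger and the 2 operations came closer together. R630 was -0.97 (SE 0.18) in MI and -1.04 (SE 0.18) in sham, and R689 was -0.55 (SE 0.14) in MI and -0.54 (SE 0.14) in sham. R306 was 1.32 (SE 0.18) in MI and 0.65 (SE 0.16) in sham. R345 was 1.21 (SE 0.25) and 0.92 (SE 0.26), and R469 was 1.01 (SE 0.20) and 0.79 (SE 0.20), each in the same order. In sham RG376 was at 0.67 (SE 0.16), R261 at 0.52 (SE 0.16) and RG303 at 0.50 (SE 0.16), with 0.79 (SE 0.14), 0.78 (SE 0.16) and 0.72 (SE 0.16) in MI.

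On this scale the limma model called 8 of the 8 in MI, against 18.1% of all probes tested, and 7 of the 8 in sham, against 7.45%, with RG303 the one not called. Ranges of the days did not overlap for 8 of the 8 in MI, against 13.3%, and for 5 of the 8 in sham, against 10.9%. The 3 that overlapped in sham were R689, R345 and R261. Called in both operations were 10 of 275 probes (3.64%), of which 7 belong to the 8. The others, named after their values were seen, were R546 with 0.59 (SE 0.17) in MI and 0.65 (SE 0.17) in sham, R084 with 0.89 (SE 0.17) and 0.63 (SE 0.18), and RG199 with 0.78 (SE 0.21) and 0.79 (SE 0.23). The 8 are thus not all the probes of the table that were called in both operations. At the other edge, R261 was the called member with the smallest sham difference, and RG303, just below it, was not called.

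**Figure D2:**
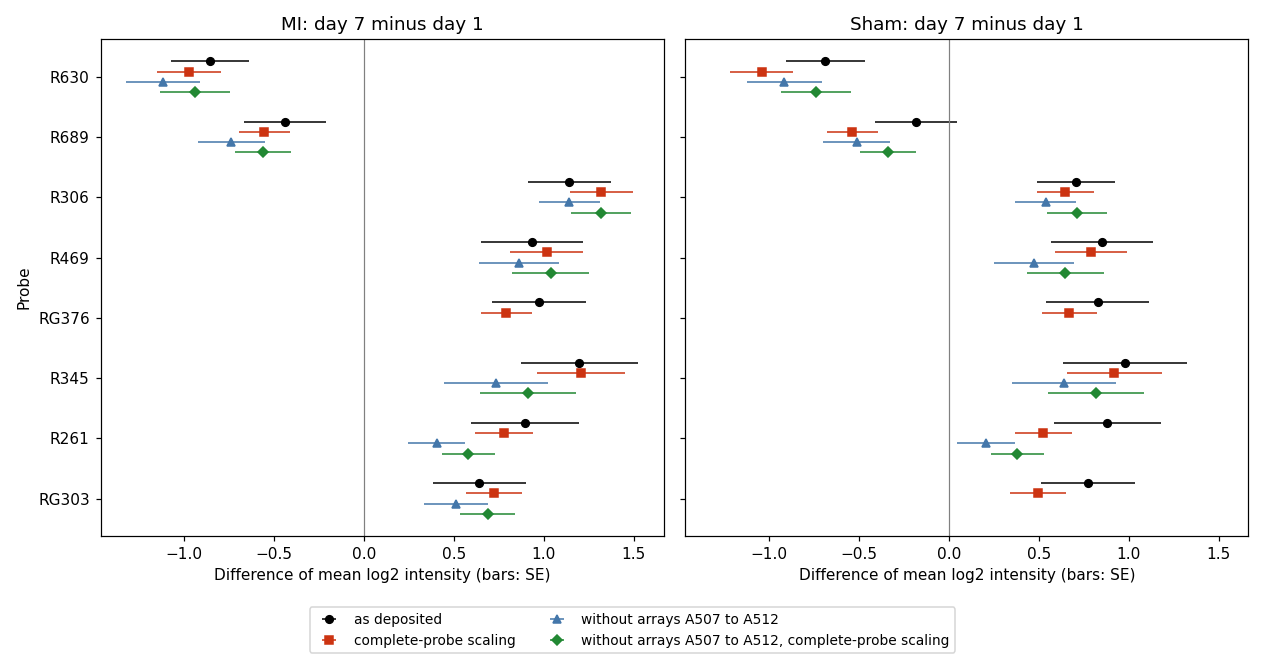
Day 7 minus day 1 difference of mean log2 intensity with its SE for each probe in MI (left) and sham (right), on the deposited scale and with complete-probe scaling, each with and without arrays A507 to A512. Points missing for RG376 and for RG303 in sham could not be fitted without those arrays, and the differences nearest 0 are those of R689 as deposited (-0.18) and of R261 without those arrays (0.21), both in sham.

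Leaving out arrays A507 to A512 left 3 arrays of each operation at day 1. RG376 then had values on 2 of them in each operation and could not be fitted, nor could RG303 in sham. On the deposited scale R630 moved to -1.12 (SE 0.21) in MI and -0.91 (SE 0.21) in sham, and R689 to -0.74 (SE 0.19) and -0.51 (SE 0.19). All 6 remaining day 1 values of R630, 468 to 599, lay above all 12 day 7 values. R306 stayed at 1.14 (SE 0.17) in MI, since none of its MI values came from these arrays, and was 0.54 (SE 0.17) in sham. R345 fell back to 0.74 (SE 0.29) in MI and 0.64 (SE 0.29) in sham, R469 to 0.86 (SE 0.22) and 0.47 (SE 0.22), and RG303 to 0.51 (SE 0.18) in MI. R261 lost more than any other: its difference was 0.40 (SE 0.16) in MI and 0.21 (SE 0.16) in sham, against 0.90 and 0.88 with those arrays. The median difference over all probes tested was then -0.06 in MI and -0.02 in sham, against 0.22 and 0.29 with them. With complete-probe scaling it was 0.12 in MI and 0.14 in sham. That scaling makes the mean log2 intensity of the probes listed on every array equal on all arrays. Its medians are therefore relative to the mean of those probes, and a general shift to higher day 7 values cannot be read from them.

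Without these arrays the limma model called 4 of the 7 probes tested in MI (R630, R689, R306 and R469), where 2.57% of all probes were called, and 0 of the 6 tested in sham, where 0% were called and 48 of 305 had an unadjusted p under 0.05. With complete-probe scaling as well, it called 7 of 7 in MI, where 8.36% were called, and 0 of 6 in sham, where 0% were called and 65 had an unadjusted p under 0.05. In sham no call was thus made without arrays A507 to A512 on either scale. On that scale the sham differences were -0.74 (SE 0.20) for R630, -0.34 (SE 0.16) for R689, 0.71 (SE 0.17) for R306, 0.65 (SE 0.21) for R469, 0.82 (SE 0.27) for R345 and 0.38 (SE 0.15) for R261. None of the 16 differences between days (8 probes in 2 operations) changed direction on either scale, with or without these arrays, where it could be fitted.

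Array titles carry numbers that form 6 runs, each of sham titles followed by MI titles of a single day. Day 1 fell in A505 to A506, A507 to A512 and A535 to A538, and day 7 in A501 to A504, A513 to A516 and A517 to A520. The labels do not say what a run stands for, and day and run cannot be told apart beyond the 3 runs that each day holds. Geometric mean intensities of R630 with complete-probe scaling were 500.8, 566 and 425 in the day 1 runs and 248, 231 and 274 in the day 7 runs. For R306 they were 58.4, 69.1 (1 array) and 50.5 against 113, 101 and 108. For R689 they were 363, 363 and 298 against 194, 249 and 261.2, and for R345 they were 74.8, 58.2 and 91.7 against 127, 172 and 173. In all 8 probes each day 7 run lay on the same side of each day 1 run on this scale, against 28.7% of the 240 probes with a value in every run. On the deposited scale this held for 7 of the 8, against 7.92%. The exception was R689, at 252 in A507 to A512 and 285 in A513 to A516. The choice by day used these same values, so these counts are descriptions only and do not separate day from run. Some run means rest on 1 array, as for R306 in A507 to A512 and RG303 in A505 to A506. Runs of the same day also differed: R345 was at 127 in A501 to A504 and at 172 and 173 in the other day 7 runs.

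**Figure D3:**
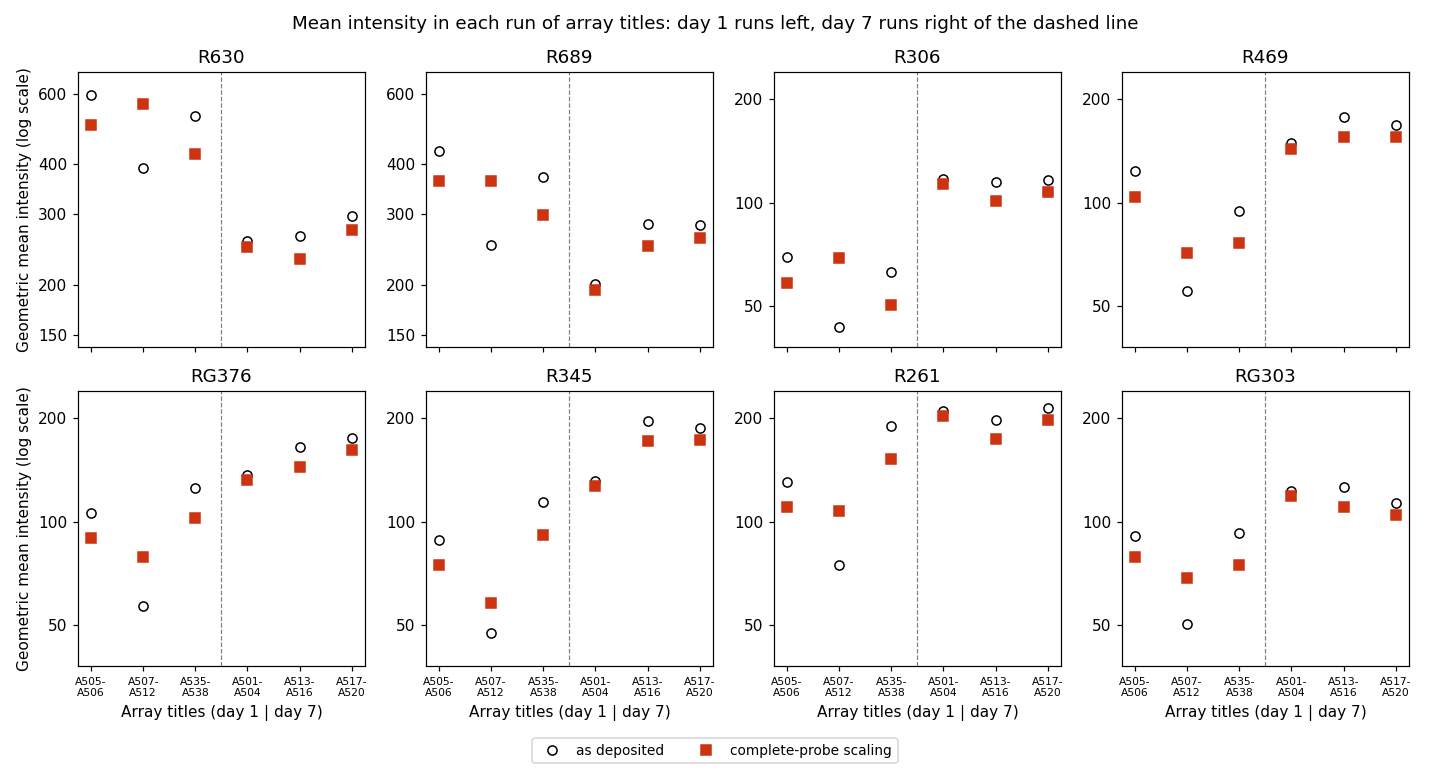
Geometric mean intensity (log scale) of each probe in the 6 runs of array titles, as deposited (open circles) and with complete-probe scaling (squares), with the day 1 runs left of the dashed line and the day 7 runs right of it. With complete-probe scaling the day 7 runs lie on one side of the day 1 runs in all 8 probes, and in every probe but R345 the largest gap between the scales is in A507 to A512.

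With the runs as a random block in the deposited-scale fit, where the correlation of arrays within a run was 0.517, the differences were of similar size with larger SE. R306 was at 1.26 (SE 0.31), R345 at 1.17 (SE 0.38) and R630 at -0.94 (SE 0.31) in MI. The limma model then called 0 of the 8 in MI, where 0.282% of probes (1 of 354) were called and 39 had an unadjusted p under 0.05, and 0 of the 8 in sham, where 0% were called and 33 had one. With complete-probe scaling and the block together, 8 of the 8 were called in MI, where 7.63% were called. In sham 0 of the 8 were called with both, where 0% were called and 63 had an unadjusted p under 0.05, so the 7 sham calls of complete-probe scaling were not made with the block. The sham differences were then -1.02 (SE 0.25) for R630, 0.62 (SE 0.21) for R306 and 0.98 (SE 0.33) for R345.

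The position of each probe within its own array depends on no scaling between arrays. Counted from the brightest among the probes listed on every array, R630 stood at places 2 to 19 on the day 1 MI arrays and 38 to 82 on the day 7 MI arrays. In sham it stood at places 2 to 18 and 17 to 74. From day 1 to day 7 its mean place changed by -48.3 in MI and by -38.5 in sham, where a negative change is a move toward the dim end. R689 moved by -32.3 places in MI and -21.5 in sham. R345 and R261 moved up 13.5 and 13.3 places in MI and 3.83 and 6 in sham. R306 moved up 2.67 and 1.08 places, R469 4.67 and 6.17, RG376 5.25 and 2.83, and RG303 1.92 and 0.75, in MI and sham in that order. At day 1 these 4 probes and R345 stood at places 90 to 95. Without arrays A507 to A512, R630 moved by -51.7 places in MI and -35.2 in sham and R689 by -33.5 and -16, and the other 6 probes moved up 1.67 to 13.2 places in MI and 1 to 6.83 in sham.

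Correlations over arrays include the difference between days that chose the probes, and the most similar probes are given here as descriptions only. Whether the 8 probes varied as a single group was not tested. R630 and R689 had each other as the most similar probe over all 24 arrays (Pearson r = 0.88 with complete-probe scaling, 0.77 as deposited). The values of r that follow are with complete-probe scaling. RG376 was most like R345 (r = 0.92 over 18 shared arrays), and R469 was most like RG303 (r = 0.83 over 19). The most similar probe lay outside the 8 for R345 (RG199, r = 0.95 over 18 arrays), R261 (RG413, r = 0.91 over 19), RG303 (R260, r = 0.86 over 20) and R306 (RG485, r = 0.80 over 18). All these pairs share their arrays, and so any level of a whole array that scaling leaves.

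For the 3 probes listed on every array, variation within groups was also examined, since the choice by day did not use it. Arrays were shuffled within groups and not within runs of titles. Levels shared by a run can therefore enter the correlations below and their p-values. On the deposited scale the level of a whole array can enter them too. Other pairs of probes listed on every array were not correlated in this way. Whether such values of r are particular to these probes was therefore not tested. Deviations of log2 intensity from the group mean were correlated between R630 and R689 with Pearson r = 0.787 as deposited (permutation p = 6e-05 within groups, adjusted p = 0.00072 over 12 relations; Spearman rho = 0.751, permutation p = 0.00022, adjusted p = 0.00264). After removal of the 2 arrays most distant from the median of R630, r was 0.698. With complete-probe scaling r was 0.638 (permutation p = 0.00608, adjusted p = 0.0182) and rho 0.526 (permutation p = 0.0183, adjusted p = 0.0549), and r was 0.423 after the same removal. Over the 18 arrays outside A507 to A512, r was 0.591 as deposited (permutation p = 0.0635, adjusted p = 0.152; rho = 0.395, permutation p = 0.167) and 0.509 with complete-probe scaling (permutation p = 0.0824, adjusted p = 0.165; rho = 0.441, permutation p = 0.103), so the relation did not pass there. Within A507 to A512 alone, r was 0.881 as deposited and 0.606 with complete-probe scaling (6 arrays, not tested).

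R261 was correlated with R630 and R689 on the deposited scale and not after complete-probe scaling. As deposited, r was 0.568 with R630 (permutation p = 0.00593, adjusted p = 0.0182; rho = 0.592, permutation p = 0.0054, adjusted p = 0.0216) and 0.700 with R689 (permutation p = 0.00243, adjusted p = 0.0146; rho = 0.638, permutation p = 0.00349, adjusted p = 0.0209), and without the 2 most distant arrays it was 0.50 and 0.412. With complete-probe scaling r was -0.219 (permutation p = 0.357, adjusted p = 0.428; rho = -0.223, permutation p = 0.324) and -0.221 (permutation p = 0.353, adjusted p = 0.428; rho = -0.258, permutation p = 0.217). As deposited but without A507 to A512, r was 0.234 (permutation p = 0.248, adjusted p = 0.372; rho = 0.247, permutation p = 0.318) and -0.0805 (permutation p = 0.718, adjusted p = 0.718; rho = -0.143, permutation p = 0.572).

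MI was also tested against sham averaged over both days, a comparison that the choice by day did not use. With all 24 arrays its difference of means is independent of that choice for probes listed on every array, here R630, R689 and R261. For the other probes, listed on fewer arrays at day 1 than at day 7, it is not. Nor is it for any probe without arrays A507 to A512. The estimate of the spread is shared with the day contrasts in every case. The tissue sampled differed between the operations, so an effect of the operation cannot be told apart from a difference of tissue. As deposited, the limma model called 0 of the 8, where 1.09% of 275 probes (3 probes) were called, and none of the 8 had an unadjusted p under 0.05. The median difference was 0.09 over the 8 and 0.08 over all probes tested. The differences ran from -0.05 (SE 0.20) for R469 to 0.44 (SE 0.24, adjusted p = 0.648) for R345, which ran from 0.27 without sham day 1 replicate 4 to 0.61 without sham day 1 replicate 6. For R630 the 95% interval was -0.35 to 0.29 and for R689 it was -0.26 to 0.40. It was -0.43 to 0.44 for R261, -0.15 to 0.51 for R306 and -0.05 to 0.93 for R345. With complete-probe scaling 0 of the 8 were called, where 5.09% of probes were, and R345 was at 0.37 (SE 0.18, adjusted p = 0.258). Without arrays A507 to A512, 0 of the 6 tested were called on either scale, where 1.62% of probes as deposited and 2.43% with complete-probe scaling were called. R345 was then at 0.50 (SE 0.20, adjusted p = 0.276) as deposited and 0.46 (SE 0.19, adjusted p = 0.211) with complete-probe scaling, with unadjusted p-values of 0.0244 and 0.0248.

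R345 was the 1 of the 8 whose call in this test changed when the runs of titles were used as a block. The block does not remove the difference of tissue between the operations. With the 6 runs as a fixed block, which compares MI with sham within runs, it was 0.53 higher in MI (SE 0.15, adjusted p = 0.0174, 1.44-fold) on the deposited scale, and was the 1 of the 8 called, where 16% of 275 probes (44 probes, 42 of them higher in MI) were called. A share of 1 in 8 is no larger than that over all probes. The median difference over all probes tested was 0.12, so values were higher in MI in general on this scale. Whole-array levels over the probes listed on every array also differed in A507 to A512, at -1.10, -0.59 and -0.67 in sham and -0.07, -0.60 and -0.15 in MI. Their part in this median was not tested. The differences of R345 within the day 7 runs were 0.92 in A501 to A504, 0.45 in A513 to A516 and 0.27 in A517 to A520. Within the day 1 runs they were -0.15 in A505 to A506 (1 array of each operation), 0.65 in A507 to A512 (3 listed arrays) and 0.76 in A535 to A538. R345 was thus higher in MI in 5 of 6 runs. The call was kept in 22 of 24 fits that left out 1 array each. It was lost without sham day 1 replicate 4 (0.50, adjusted p = 0.0652) and without sham day 1 replicate 5 (0.37, adjusted p = 0.0543). With complete-probe scaling and the block, R345 was at 0.41 (SE 0.15, adjusted p = 0.0706), and 0 of the 8 were called, where 16.7% of probes (29 higher and 17 lower in MI) were and the median was 0.01. RG376, also higher in MI in each of the 6 runs, was listed on only 2 arrays in A505 to A506, 2 in A535 to A538 and 3 in A507 to A512. How many of all probes were higher in MI in as many runs as R345 or RG376 was not counted. With the block RG376 was at 0.29 (SE 0.11, adjusted p = 0.0789) as deposited and was not called. Without the block it was at 0.20 (SE 0.20, adjusted p = 0.891), so the block moved this probe as well.

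**Figure D4:**
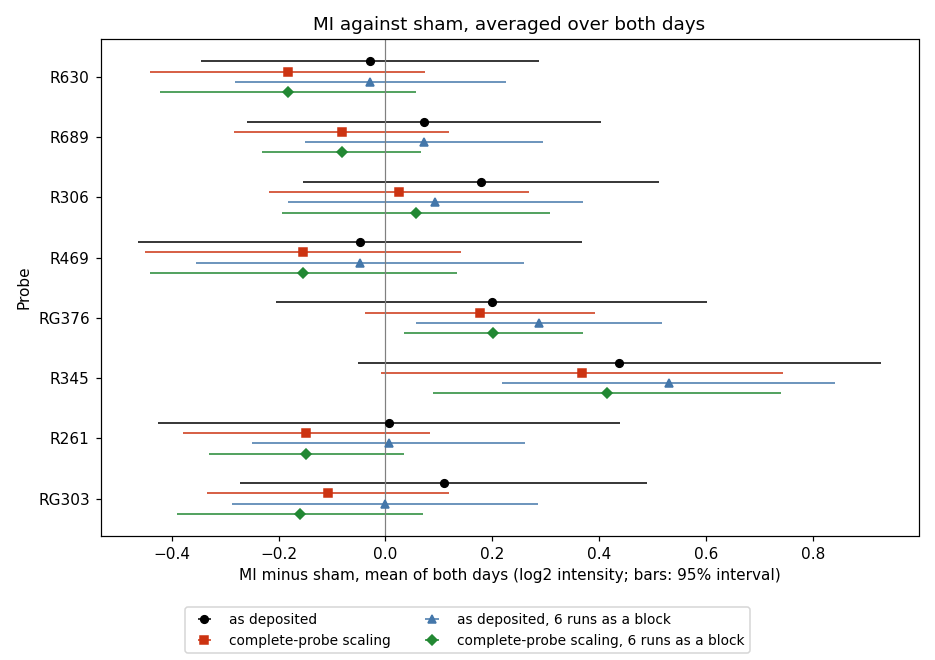
MI minus sham difference of mean log2 intensity averaged over both days, with its 95% interval, for each probe, as deposited and with complete-probe scaling, each without and with the 6 runs of titles as a block. Without the block each of the 16 intervals covers 0, and with it those of RG376 and R345 lie above 0 on both scales.

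MI against sham on each day was also examined, and these contrasts share their arrays with the day contrasts. At day 1 the model called 0 of the 8 on the deposited scale, where 0% of 283 probes were called and 22 had an unadjusted p under 0.05, and 0 of the 8 with complete-probe scaling, where 3.53% were called. At day 7 it called 0 of the 8, where 1.44% of 486 probes were called as deposited and 2.47% with complete-probe scaling. Without arrays A507 to A512, 0 of the 6 tested at day 1 and 0 of the 8 at day 7 were called on either scale. Of all probes, 2.67% were then called at day 7 on both scales. At day 1 the share was 0.398% with complete-probe scaling and 0% as deposited, where 18 probes had an unadjusted p under 0.05. R306 came nearest at day 7, where the intensities given above differed by 0.40 on the log2 scale (SE 0.18, unadjusted p = 0.0403, adjusted p = 0.568). With complete-probe scaling its ranges did not overlap, at 86.9 to 106 in sham and 110 to 143 in MI, and it was the 1 of the 8 of which this was true, against 6.58% of probes (0.36, SE 0.15, adjusted p = 0.235). As deposited 0 of the 8 had separate ranges, against 5.35%.

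The difference between the day effects of the operations is built from the contrasts that chose the probes and is given with its interval only. As deposited its 95% interval covered 0 for all 8 probes: it was -0.81 to 0.46 for R630, -0.92 to 0.40 for R689, -0.85 to 0.88 for R261 and -0.76 to 1.20 for R345. R306 had the largest value, 0.43 (-0.23 to 1.10), which was 0.67 (0.19 to 1.16) with complete-probe scaling and 0.61 (0.11 to 1.10) without arrays A507 to A512. No probe of the table was called for this difference on either scale, and 7 of 275 as deposited and 12 with complete-probe scaling had an unadjusted p under 0.05.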

How the data were processed

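The authors deposited a single table of intensities, positive linear values with a median of 91.1 to 107.5 over the probes listed on each array. How the arrays were scanned, corrected for background and scaled is not given in the sources used here, and 63.3% of cells were blank. Intensities were put on the log2 scale with no constant added. With limma 3.58.1 (lmFit, eBayes; R 4.3.3), 4 group means were estimated from the 24 arrays for probes that each group compared listed 3 times or more, and p-values were adjusted over all of these probes (Benjamini-Hochberg). The call was made at an adjusted p under 0.05. SD is between arrays. Correlations within groups used 100000 shuffles of arrays within groups, two-sided, in Python 3.11.15 with scipy 1.17.1. Simulated data with known changes served to test the fit of group means and the fixed block of runs. Apart from run shifts in the latter, noise was independent between arrays, with blanks as in the deposited data. The random block of runs was not simulated. Of array pairs, 0 held identical values. The 8 probes, the second scaling, the arrays left out and the tests were chosen with earlier results of these data known. All 8 probes are named, and the most similar probe was the one with the highest Pearson r over at least 18 shared arrays. Replicate numbers follow accession order and pair no samples. The number of arrays limits the precision.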

Additional observations from a re-analysis of the deposited data

How the results depend on the processing

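None of the 16 differences between days changed direction in an alternative that could fit it (13 fitted without arrays A507 to A512, 8 without A535 to A538, 6 with 6 listed values required), while the number of the 8 probes called changed, often with the share of all probes called. In MI, 4 were called as deposited (2.82% of all probes), 8 with complete-probe scaling (18.1%; 8 and 18.4% when the 8 were left out of it), 7 of 7 without arrays A507 to A512 and with complete-probe scaling (8.36%), 0 with the 6 or with 5 runs of titles as a block (0.282% each), 8 with the 6 runs and complete-probe scaling together (7.63%; added after seeing the data), 0 of 3 tested with 6 listed values required (0% of 138, 19 with an unadjusted p under 0.05), and 1 at an adjusted p under 0.01 (1.13%). Leaving out single arrays gave 0 to 5, with 0 of 7 tested without MI day 1 replicate 6 (0.746%). In sham, 0 were called as deposited (0.311%), 7 with complete-probe scaling (7.45%, the same when the 8 were left out of it), 0 with complete-probe scaling and the 6 runs (0%), and 2 of 3 tested without arrays A535 to A538, where 57.1% of all probes were called. Leaving out single arrays gave 0 to 7, with 7 without sham day 1 replicate 6 (23.2%), 5 without replicate 1 (20.8%) and 3 without replicate 5 (9.52%). For MI against sham over both days, 0 were called as deposited, 1 with the 6 runs as a block (16%) and 0 whichever array was left out. R469 there changed sign when single arrays were left out (-0.24 to 0.11) and was never called. The cause of these changes was not tested. A minimum of 2 listed values, a fit of the groups compared alone, robust eBayes with an intensity trend, removal of the dimmest 25% of probes, 16 added to each intensity, centring on the median and quantile normalization changed no count of the 8 called by more than 1.5 times. In MI, 6 were called with quantile normalization (5.37% of all probes) and 6 with the groups compared alone (4.52%). With robust eBayes and the trend 3 were called (4.52%), and with each of the others 4 (2.68% to 3.95%). No paired analysis was possible because the replicate numbers are not in the labels. Signal over background is not given, so it could not be used to limit the dim probes.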

Other observations

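Of the 30 groups of 4 to 6 listed values of these probes that were tested for a single array lying apart from the rest (Dixon's test), 0 held one. With complete-probe scaling, RG303 was at 145.52 in sham day 7 replicate 2, where the group median was 106.07. R345 was at 148.52 in MI day 7 replicate 2, where the group median was 191.98.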
